A study of Homo sapiens with 6 samples.

Results

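The zinc-finger genes of human chromosome 19 whose symbol is ZNF plus digits and at most 1 letter were described in leukaemia cells with and without knockdown of PRMT5. Of the 23698 gene rows in the count tables, 249 were chromosome 19 rows with such a symbol, and 204 of these had at least 10 counts in at least 3 libraries and are the members. The symbol and the count chose them, not the difference between groups. The 45 rows left out held at most 20.0 counts in any library. The rows nearest the limit were ZNF132, ZNF682 and ZNF841 on the outside, with 9.39, 9.02 and 8 counts in their third-highest library, and ZNF154, ZNF486 and ZNF702P on the inside, with 10, 10 and 10.6 counts. The low-count filter of the test kept 203 members and left out ZNF154.

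The cells were MV4-11, an established line from an acute myeloid leukaemia. The 3 knockdown libraries came from cells carrying a short hairpin RNA against PRMT5, an arginine methyltransferase that adds symmetric dimethyl marks to histones and splicing proteins. The 3 control libraries came from cells carrying a scrambled control vector. Both groups were stably transduced with lentivirus and grown in the same serum-supplemented medium, and poly(A) RNA was sequenced. The labels give neither the hairpin sequence, nor the time after transduction, nor whether libraries of a group came from separate cultures, so the p-values measure the spread between these libraries, which may be technical.

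C2H2 zinc-finger proteins read DNA through repeated finger modules, each held by a zinc ion. Many carry a KRAB domain at the amino end, which recruits the scaffold TRIM28 and through it the histone methyltransferase SETDB1, and so silences transposable elements and nearby genes. Chromosome 19 holds the largest clusters of this family in the human genome, built by tandem duplication, so neighbours are close relatives and can share reads.

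Library totals lay between 16408484 and 19077106 counts. PRMT5 measured 103, 71.6 and 53.0 CPM (counts relative to library size, scaled by the trimmed mean of M-values, TMM) in the knockdown libraries 1 to 3, against 133, 53.2 and 158 CPM in the control libraries 1 to 3. Control 2 was as low as the lowest knockdown library, so it is called the library labelled scrambled control 2. It stood apart for other genes too: it lay more than 1 log2 unit from the mean of the other controls for 17.2% of the members and 30.3% of all tested genes. The fitted log2 difference of PRMT5, knockdown minus control, was −0.60 ± 0.43 (SE; edgeR adjusted p = 0.926). It was −0.94 without the library labelled scrambled control 2, −0.29 without control 3 and −0.40 without knockdown 3. The myeloid marker list was measured in full, with all 9 genes tested and a summed level of 1756 to 2648 CPM in knockdown and 1460 to 2438 CPM in control libraries. The T-cell, B-cell and fibroblast lists had no gene that passed the filter. Of 4 epithelial markers, 2 were tested and EPCAM was at 0; their summed level was 17.7 to 28.0 CPM in knockdown and 15.7 to 45.8 CPM in control libraries.

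No member passed the test. At an adjusted p under 0.05, edgeR's quasi-likelihood test called 0 of the 203 members and 0 of all 13668 tested genes, a background of 0%, with a smallest adjusted p of 0.926. At an unadjusted p under 0.05 it gave 3 members, 1 higher and 2 lower in knockdown, where the share over all genes was 1.77% (0.571% higher and 1.2% lower). DESeq2 called 0 genes and gave 6 members among 461 genes at an unadjusted p under 0.05. The limma-voom fit also called 0 genes and gave 3 members among 117. With the replicate number as a block, edgeR called 0 genes and gave 5 members among 436, with a smallest adjusted p of 0.709. The unadjusted count over all genes was 33, 110 and 438 without knockdown 1, 2 and 3, and 373, 103 and 1307 without control 1, the library labelled scrambled control 2 and control 3, with 0 genes at an adjusted p under 0.05 each time.

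As a family the members showed no common shift between the groups larger than the spread of the libraries, whose medians had an SD of 0.083 on the log2 scale. Their median log2 difference was −0.02, with an interquartile range from −0.26 to 0.19, and 99 members were higher and 104 lower in knockdown. The median over all tested genes was −0.00. The 230 ZNF genes on other chromosomes that met the same count rule had a median of 0.06, with 126 higher and 104 lower, and the 797 tested chromosome 19 genes outside the family had a median of −0.05. Relative to the mean of the 6 libraries, the members' median level was 0.03, −0.01 and −0.04 on the log2 scale in knockdown 1 to 3, against 0.12, −0.10 and 0.02 in control 1 to 3. The knockdown medians therefore lay inside the range of the controls. Summed over the members, the level was 3175 ± 165 CPM in knockdown and 3148 ± 120 CPM in control libraries (SD, n = 3 each). As a share of all counts, the members took 0.335%, 0.319% and 0.314% in knockdown, against 0.338%, 0.266% and 0.328% in control.

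**Figure D1:**
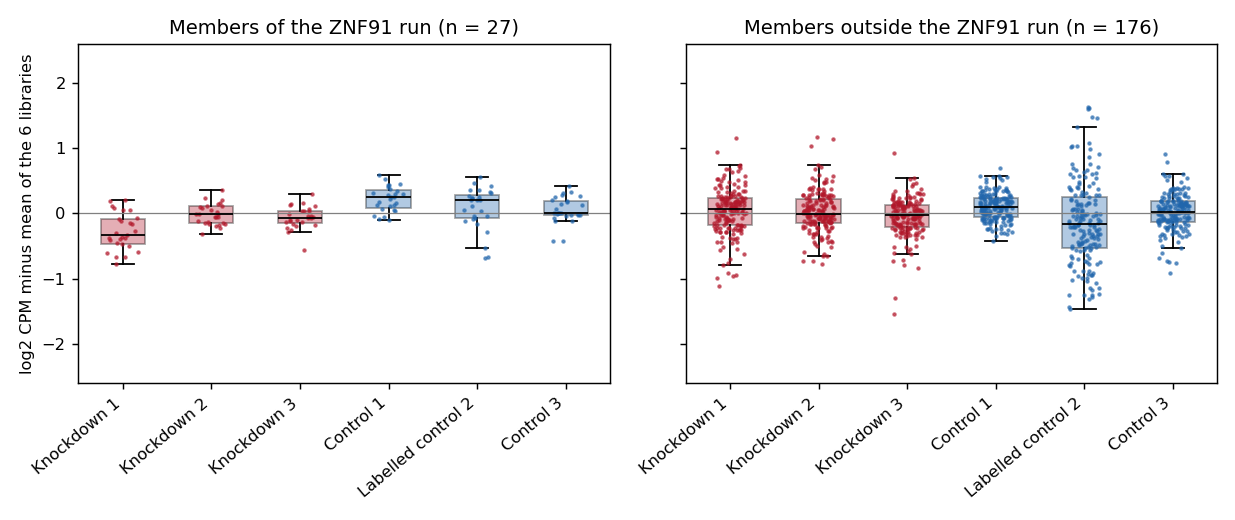
Level of each member in each library, as log2 CPM minus its mean over the 6 libraries, for the 27 members in the run around ZNF91 (left) and the 176 members outside it (right); points are genes, boxes the quartiles, the line the median and whiskers reach 1.5 times the box at most. On the left the knockdown medians are −0.33, −0.01 and −0.07 against 0.25, 0.20 and 0.01 in control, while the right boxes centre between −0.16 and 0.10, with the widest spread in the library labelled scrambled control 2.

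The members' small median depended on the library labelled scrambled control 2, which was the lowest of the 6 libraries for 80 members, or 39.4%, against 36.7% of all genes. Control 1 was the highest library for 44 members, or 21.7%, against 7.62% of all genes. Taken by same-numbered pair, the members' median difference was −0.11, 0.18 and −0.07 in pairs 1 to 3, with 127, 86 and 130 of 203 members lower in knockdown. Without the library labelled scrambled control 2, 137 of 204 members, or 67.2%, were lower in knockdown, with a median of −0.09, against 49.6% of all genes. Without both libraries numbered 2, 134 of 203 were lower, with a median of −0.11, and 0 members were called in either fit. The sign of the median also turned with the scaling: with total counts in place of TMM factors it was 0.02, where the median of all genes was 0.04. The share of members with the same sign in all 3 pairs was 28.6%, against 28.8% of all genes. These were 39 members lower and 19 higher in knockdown, against 1929 and 2003 of all genes.

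The 4 members that differed by more than 1 log2 unit, ZNF836, ZNF699, ZNF844 and ZNF555, were lower in knockdown, and each was highest in the library labelled scrambled control 2. Past that size were 738 of all 13668 tested genes, a larger share than the 4 of 203 tested members. Of these 738 genes, 553 were lower. ZNF836, a KRAB gene with 24 finger patterns in its reference protein, had 1.67, 2.73 and 2.22 CPM in knockdown, against 4.20, 9.66 and 3.83 CPM in control. The groups did not overlap, and the log2 difference was −1.41 ± 0.48 (SE; edgeR unadjusted p = 0.0194, adjusted p = 0.926). In bulk libraries such as these, fewer cells of a type and less RNA per cell cannot be told apart. ZNF160, a KRAB protein reported to repress the toll-like receptor gene TLR4, had 20.8, 20.4 and 18.6 CPM in knockdown, against 38.9, 53.0 and 22 CPM in control. Its knockdown libraries lay close together below all controls, control 3 being the nearest, and the difference was −0.93 ± 0.33 (SE; edgeR unadjusted p = 0.0247, adjusted p = 0.926).

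ZNF699 had 1.46, 2.31 and 2.38 CPM in knockdown, against 3.8, 9.47 and 2.28 CPM in control, so control 3 lay within the knockdown range. ZNF615 had 1.88, 3.89 and 2.33 CPM in knockdown, against 5.28, 7.46 and 3.42 CPM in control. ZNF211 had 14.8, 14.1 and 13.1 CPM in knockdown, against 18.4, 35.4 and 15 CPM in control. The groups were apart for ZNF211 and overlapped for ZNF615. ZNF844 had 0.679, 1.88 and 0.919 CPM in knockdown, against 1.53, 5.19 and 1.71 CPM in control, and overlapped as well. The log2 differences of these 4 genes lay between −1.33 and −0.71, none at an unadjusted p under 0.05. Against the mean of controls 1 and 3 alone, the log2 difference was −0.86 for ZNF836, −0.55 for ZNF160, −0.53 for ZNF699, −0.70 for ZNF615, −0.25 for ZNF211, −0.56 for ZNF844 and −0.16 for ZNF555, which stood at −1.02 against all 3 controls.

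Among the members that were higher in knockdown, ZNF428 had the smallest p. This gene, with 1 finger pattern and no KRAB letters in its reference protein, had 31.8, 24.7 and 19.5 CPM in knockdown, against 16.1, 10.2 and 18.8 CPM in control. The groups did not overlap, with a log2 difference of 0.75 ± 0.32 (SE; edgeR unadjusted p = 0.0470, adjusted p = 0.926). ZNF566 had 55.2, 37.4 and 23.1 CPM in knockdown, against 23.8, 19.9 and 25.4 CPM in control, and knockdown 3 lay within the control range (log2 difference 0.75 ± 0.33, SE). ZNF561 had 68.9, 66.2 and 56.0 CPM in knockdown, against 48.6, 40.3 and 54.4 CPM in control, with a log2 difference of 0.42 ± 0.21 (SE). The nearest libraries of its groups were knockdown 3 and control 3. ZNF627, ZNF788 and ZNF114 had log2 differences of 0.44, 0.49 and 0.72, and of these ZNF114 alone had groups that did not overlap. For ZNF114 the library labelled scrambled control 2 was the lowest, at 1.95 CPM, and without it the difference was 0.40. Without knockdown 1 the difference was 0.39 for ZNF566 and 0.27 for ZNF627.

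**Figure D2:**
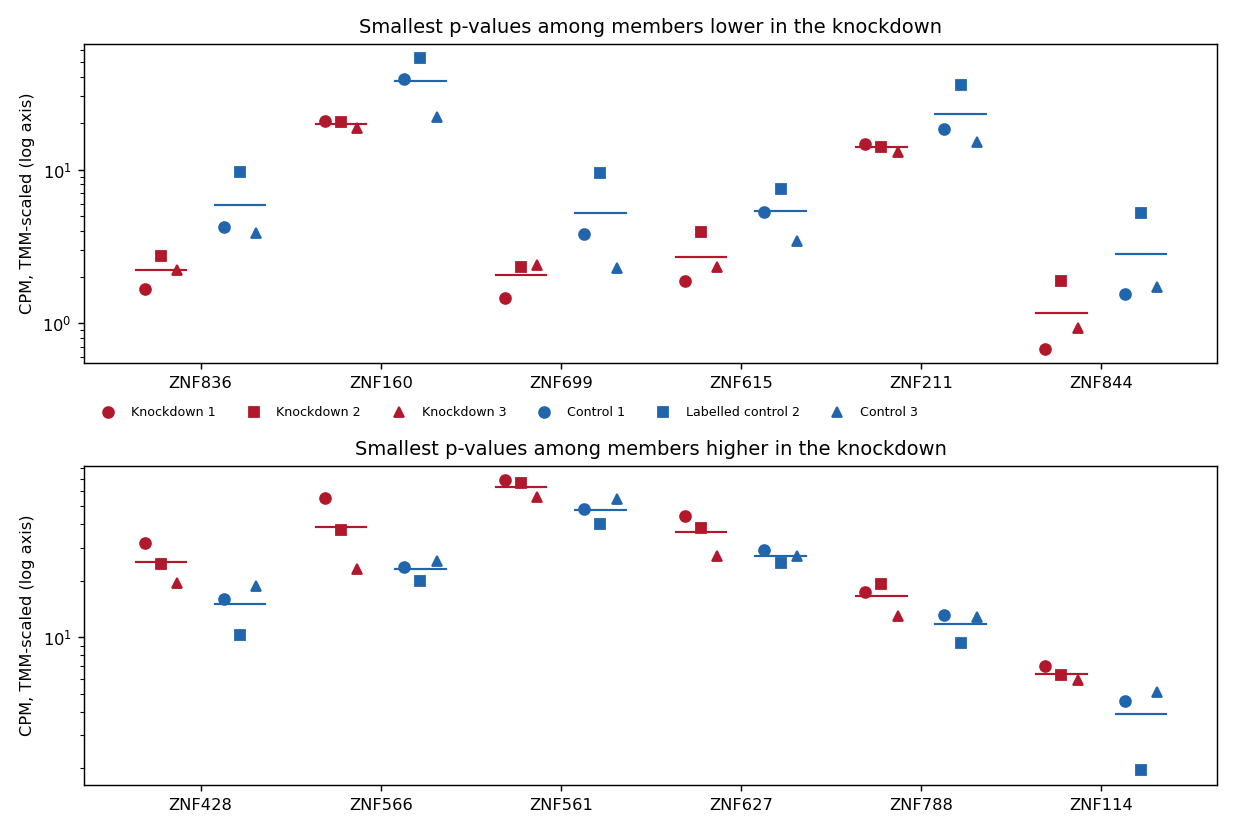
CPM on a log axis in each library for the 6 members with the smallest unadjusted p among those lower (top) and higher (bottom) in knockdown; horizontal lines are group means, n = 3 libraries each. In the top row the square of the library labelled scrambled control 2 is the highest point of every gene, and in the bottom row it is the lowest.

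On TMM-scaled CPM the 2 groups did not overlap for 19 members, or 9.36% of those tested, against 6.24% of all genes. The 15 lower ones compare with 3.1% of all genes, and the 4 higher ones (ZNF428, ZNF561, ZNF114 and ZNF547) with 3.14%. The lower ones were ZNF836, ZNF160, ZNF211, ZNF439, ZNF570, ZNF548, ZNF610, ZNF808, ZNF208, ZNF729, ZNF728, ZNF823, ZNF227, ZNF492 and ZNF430. ZNF439 varied little within either group, with 2.09, 1.76 and 1.84 CPM in knockdown, against 3.18, 2.92 and 2.90 CPM in control. ZNF227 also varied little within a group, with 15.8, 16.3 and 16.8 CPM in knockdown, against 19.1, 19.9 and 19.5 CPM in control. For both genes the control libraries lay close together on this scale, the library labelled scrambled control 2 included. The log2 differences were −0.66 ± 0.34 and −0.26 ± 0.21 (SE). Per total counts that library lay below controls 1 and 3 for both genes. For ZNF227 it then lay about level with knockdown 3, so the clear gap between its groups depends on the TMM scaling. No 2-sided exact permutation test of 3 libraries against 3 can give a p below 0.1.

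The members were also described in the order of their place on the chromosome. A run was taken as neighbouring members with at most 5 other protein-coding genes between one and the next, which gave 10 runs of at least 5 members holding 172 members. In the run of 27 members from ZNF101 to ZNF254, which includes ZNF91 and ZNF93, 24 were lower in knockdown, with a median log2 difference of −0.27 and a range from −0.62 to 0.22. Outside that run 80 of 176 members were lower, with a median of 0.03. That contrast is over all libraries. Without the library labelled scrambled control 2, 137 of 204 members, the run included, were lower. The run was singled out after its values were seen and the spacing was set after the tables were read, so these counts are a description and carry no test. No gene of the run had an unadjusted p under 0.05; the smallest was 0.161 for ZNF714, and the SE of each difference was 0.20 to 0.46.

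**Figure D3:**
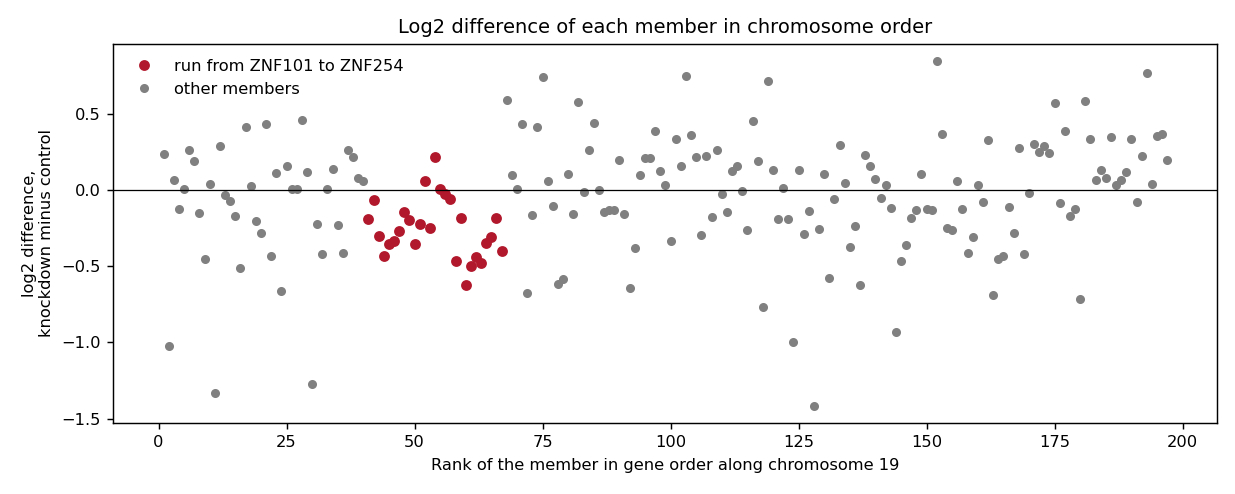
Fitted log2 difference (knockdown minus control) of each member against its rank in gene order along chromosome 19; each point is 1 gene with a place in the order, red for the 27 members from ZNF101 to ZNF254 and grey for the others. Of the red points 24 lie below 0 and none is as low as the 4 grey points below −1.

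Members of this run have described roles in genome defence. ZNF91 is a KRAB protein that binds SVA retrotransposons, and ZNF93 binds LINE elements; both repress their targets through TRIM28. ZNF91 had 2.14, 3.10 and 2.76 CPM in knockdown, against 3.74, 3.05 and 3.37 CPM in control, with a log2 difference of −0.35 ± 0.34 (SE). ZNF93 had 2.04, 3.58 and 3.08 CPM in knockdown, against 4.09, 4.60 and 3.06 CPM in control, with a log2 difference of −0.43 ± 0.38 (SE). For both genes knockdown 1 was the lowest library, and the groups overlapped because knockdown 2, and for ZNF93 also knockdown 3, lay above the lowest control. Without knockdown 1 the difference was −0.21 for ZNF91 and −0.24 for ZNF93.

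Promoters of the run are shown because they resemble each other and because most of its members had a negative difference. RefSeq (GRCh38.p14) gave a start site for 20 of the 27 genes. The 120 bases before the start are printed on the gene's own strand for 5 genes that were lower in knockdown (ZNF93, ZNF430, ZNF431, ZNF208 and ZNF91) and for ZNF708 and ZNF493, which were not. Capitals mark matches, on either strand, to GGGCGG (a GC box), CCAAT (the box bound by NF-Y), CCAATCAGG (a longer word that starts with that box), CCGGAAG (a core of ETS-family sites) and TATAAA (the TATA box).
ZNF93, chr19:19900826-19900945, plus strand: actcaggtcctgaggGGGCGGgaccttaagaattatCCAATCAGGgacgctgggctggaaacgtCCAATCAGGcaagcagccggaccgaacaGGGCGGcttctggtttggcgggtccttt
ZNF430, chr19:21020537-21020656, plus strand: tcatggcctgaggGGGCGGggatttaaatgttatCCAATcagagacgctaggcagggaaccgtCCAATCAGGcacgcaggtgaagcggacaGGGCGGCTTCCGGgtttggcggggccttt
ZNF431, chr19:21141920-21142039, plus strand: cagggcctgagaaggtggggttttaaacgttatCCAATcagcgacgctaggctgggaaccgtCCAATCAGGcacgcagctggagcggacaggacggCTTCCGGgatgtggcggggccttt
ZNF208, chr19:22010944-22011063, minus strand: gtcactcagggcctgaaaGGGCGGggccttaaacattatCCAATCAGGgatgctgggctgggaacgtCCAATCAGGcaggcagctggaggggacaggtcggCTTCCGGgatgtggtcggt
ZNF91, chr19:23395472-23395591, minus strand: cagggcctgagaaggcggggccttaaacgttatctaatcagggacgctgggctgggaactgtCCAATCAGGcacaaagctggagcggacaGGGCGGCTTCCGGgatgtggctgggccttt
ZNF708, chr19:21329411-21329530, minus strand: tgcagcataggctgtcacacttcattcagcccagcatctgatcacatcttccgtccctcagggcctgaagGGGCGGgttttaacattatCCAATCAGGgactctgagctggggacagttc
ZNF493, chr19:21397013-21397132, plus strand: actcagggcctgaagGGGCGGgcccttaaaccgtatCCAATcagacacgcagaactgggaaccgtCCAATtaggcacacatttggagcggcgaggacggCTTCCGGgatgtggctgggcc

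Over the RefSeq windows of 250 bases before to 50 after each start, CCAAT was present in 20 of 20 windows of the run (100%), against 44.4% of the 196 windows of members outside it and 34.6% of all 35116 windows. The longer word CCAATCAGG was chosen after these promoters were read, so its count is a description: it was present in 19 of the 20 windows (95%), against 6.63% of the windows of other members and 1.11% of all windows. CCGGAAG was present in 75% of the run's windows, against 36.7% and 10.3%, and GGGCGG in 80%, against 63.8% and 45.0%. TATAAA was in 15%, against 1.02% and 11.5%. In the stretches printed, ZNF708 and ZNF493, which were not lower over all libraries, hold GGGCGG and CCAAT, as ZNF430 and ZNF208 do. The sign of these genes rested on the library labelled scrambled control 2. In same-numbered pairs 1 and 3 both were lower, by −0.20 and −0.11 for ZNF708 and −0.05 and −0.02 for ZNF493. The split into lower and not lower is therefore weak. ZNF493 lacks CCAATCAGG and ZNF708 lacks CCGGAAG on either strand there, while ZNF431, which was lower, lacks GGGCGG and ZNF93 lacks CCGGAAG. A match is a string of letters and was not tested as a binding site.

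ZNF208, with 36 finger patterns the member with the most, had 3.19, 3.58 and 3.57 CPM in knockdown, against 5.39, 4.86 and 4.04 CPM in control. ZNF729, with 34 patterns, had 0.470, 0.790 and 0.919 CPM in knockdown, against 1.25, 0.973 and 1.14 CPM in control. ZNF728 had 2.45, 2.79 and 2.6 CPM in knockdown, against 4.48, 3.57 and 2.90 CPM in control. For all 3 genes every knockdown library lay below every control on TMM-scaled CPM, and the log2 differences were −0.47, −0.62 and −0.48. ZNF729 rested on 9, 13 and 17.0 counts in knockdown, against 22, 15 and 22 counts in control. Per total counts its groups overlapped, as knockdown 3 lay above the library labelled scrambled control 2. ZNF492 and ZNF430 also had groups that did not overlap on TMM-scaled CPM. ZNF430 had 28.1, 30.1 and 29.6 CPM in knockdown, against 30.5, 37.4 and 32.6 CPM in control. ZNF492 had 39 counts in both knockdown 2 and the library labelled scrambled control 2, and its groups overlapped per total counts. These 5 genes, 18.5% of the run against 3.1% of all genes, are among the 15 lower members already named. The run was singled out after its values were seen, so this share carries no test.

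Other members of the run lay at higher levels with the same sign. ZNF714, one of the 6 members with the highest mean CPM, had 40.5, 48.4 and 55.1 CPM in knockdown, against 58.6, 72.0 and 52.9 CPM in control (log2 difference −0.35 ± 0.23, SE, and −0.21 without the library labelled scrambled control 2). ZNF675, which dampens TRAF6 signalling, had 12.1, 15.8 and 12.3 CPM in knockdown, against 13.7, 21.6 and 14.4 CPM in control. The groups of both genes overlapped. The 3 members that were not lower were ZNF708 (0.06), ZNF493 (0.22) and ZNF429 (0.01). ZNF493 had 43.0, 42.9 and 36.8 CPM in knockdown, against 44.5, 23.4 and 37.4 CPM in control. Its low control value is the library labelled scrambled control 2, which was also the lowest library for ZNF708, at 12.7 CPM, and ZNF429, at 6.87 CPM.

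**Figure D4:**
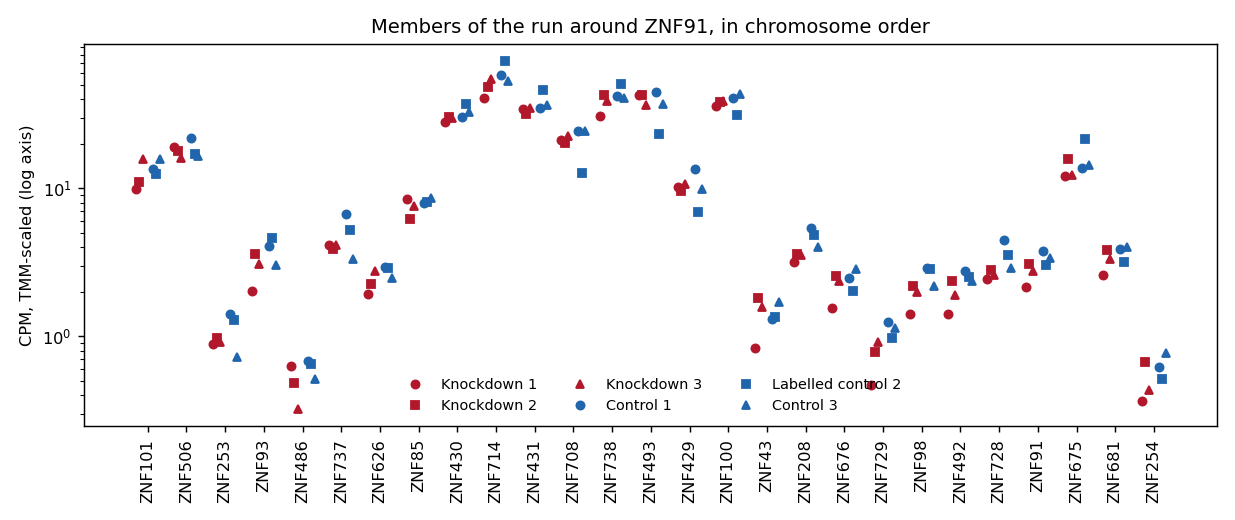
CPM on a log axis in each library for the 27 members from ZNF101 to ZNF254 in chromosome order, with knockdown libraries in red at the left of each gene and control libraries in blue at the right. Knockdown 1 (red circle) is the lowest library for 17 of the 27 genes, and control 1 (blue circle) is the highest for 13.

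The libraries did not contribute evenly to the run. Its median level relative to the 6-library mean was −0.33, −0.01 and −0.07 in knockdown 1 to 3, against 0.25, 0.20 and 0.01 in control 1 to 3. Knockdown 1 was the lowest library for 17 of the 27 genes and control 1 the highest for 13. By same-numbered pair the median was −0.56, −0.27 and −0.12, with 26, 17 and 20 genes lower, and 10 genes were lower and 0 higher in all 3 pairs. Summed over the run, the TMM-scaled level was 319, 350.3 and 352 CPM in knockdown, against 391, 379 and 368 CPM in control. The groups did not overlap on this scale, but they did on total counts. There the library labelled scrambled control 2 lay below knockdown 2 and 3. With total-count scaling 23 of the 27 genes were lower, with a median of −0.22. Without knockdown 1, 21 of 27 genes were lower with a median of −0.23, and 26 were lower, again with a median of −0.23, once the library labelled scrambled control 2 was left out. Without both libraries numbered 2 all 27 were lower, with a median of −0.25, against 50.5% of all genes. The run was singled out after these values were seen, so its counts describe that choice and carry no test. Its neighbours can share reads and are not independent of each other.

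The genes of the run were low in level and in GC content, and the part of either in its lower values was not tested. Its median mean level was 4.11 CPM, against 10.0 CPM for the other members. In the lowest quartile of members by mean CPM, under 4.26 CPM, all 14 genes of the run were lower in knockdown, against 18 of the 37 others. In the lowest quartile of all genes by transcript GC content, 22 of 25 genes of the run were lower, against 40 of 76 other members and 53.0% of all genes in that quartile. After a per-library GC trend was removed, 23 of the 27 were lower, with a median of −0.23. The order held protein-coding genes only, and the single other tested gene it placed between the ends of the run was RPSAP58. It had 1639, 2270 and 1429 CPM in knockdown, against 1551, 2285 and 1448 CPM in control. Near-identical genes can share reads, and how much of this level is its own was not tested.

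The other runs did not share one direction. From ZNF274 to ZNF446, 7 of 8 members were higher, with a median of 0.28, but the library labelled scrambled control 2 was the lowest for 7 of the 8, at a median of −0.72 relative to the 6-library mean. From ZNF613 to ZNF331, 20 of 31 members were lower, with a median of −0.13. There the library labelled scrambled control 2 was the lowest for 16 of the 31, at a median of −0.29. In same-numbered pairs 1 to 3 of that run 28, 12 and 23 members were lower, with medians of −0.26, 0.17 and −0.17. From ZNF628 to ZNF580, 5 of 7 were lower, with a median of −0.24. From ZNF264 to ZNF417, 11 of 27 were lower, with a median of 0.07. ZNF836 and ZNF160, the members with the smallest p, lie in the run from ZNF613 to ZNF331.

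Higher and lower members were both common whatever the number of fingers and with or without a KRAB box. A protein was translated from GENCODE v29 for 198 members, with a median of 12 finger patterns and up to 36. Letters of the KRAB box were found in 165 tested members, of which 87 were lower and 78 higher, with a median log2 difference of −0.03. Among 32 members without them, 15 were lower and 17 higher, with a median of 0.03. With up to 9 finger patterns 28 of 57 members were lower, with 10 to 14 patterns 43 of 82, and with 15 or more 31 of 58.

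Members with a described role outside the run gave values on both sides of 0. ZNF274, which brings SETDB1 to the ends of other zinc-finger genes, had 33.9, 24.7 and 23.0 CPM in knockdown, against 26.7, 13.7 and 24.1 CPM in control (log2 difference 0.34 ± 0.32, SE). ZNF224, a KRAB repressor of the aldolase A gene, had 21.4, 24.0 and 24.9 CPM in knockdown, against 28.6, 23.9 and 24.9 CPM in control. ZNF331, an imprinted gene, had 3.08, 2.79 and 0.378 CPM in knockdown, against 1.08, 1.62 and 0.777 CPM in control; knockdown 3 was its lowest library. ZNF382 had a log2 difference of −0.62 ± 0.43 and ZNF175, a repressor described in macrophages, one of −0.19 ± 0.32 (SE). The groups overlapped for each of these genes. Single libraries carried much of these values: ZNF274 had a difference of 0.10 without the library labelled scrambled control 2, 0.15 without knockdown 1 and 0.52 without control 1. Likewise ZNF331, at 0.85 over all libraries, had 0.44 without knockdown 1 and 1.34 without knockdown 3, and ZNF382 had −0.98 without knockdown 3. ZNF175 ranged from −0.40 without knockdown 2 and −0.35 without control 3 to −0.04, the value once either the library labelled scrambled control 2 or knockdown 1 was left out.

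Of the 6 members with the highest mean CPM, ZNF317, ZNF266 and ZNF587 differed between the groups by less than the SD within either group, and ZNF146, ZNF561 and ZNF714 by more. Per kilobase of transcript, ZNF146 stood first at 74.5 CPM per kb, followed by ZNF317 at 21.8 and ZNF266 at 19.2 among the 6 members with the highest mean CPM. ZNF146, made up of fingers with no KRAB domain, had 371, 364 and 231 CPM in knockdown, against 269, 202 and 253 CPM in control (log2 difference 0.41 ± 0.25, SE). Knockdown 3 lay within the control range. ZNF317 averaged 90.2 ± 5.5 CPM in knockdown and 87.6 ± 5.5 CPM in control (SD, n = 3 each). ZNF266 averaged 65.9 ± 8.2 CPM in knockdown and 69.0 ± 6.1 CPM in control, and ZNF587 61.6 ± 7.2 CPM in knockdown and 60.2 ± 9.2 CPM in control (SD, n = 3 each). The 95% intervals of the log2 difference ran from −0.39 to 0.47 for ZNF317 and from −0.47 to 0.53 for ZNF587. True differences anywhere inside these ranges are compatible with the values of these libraries.

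The co-repressors through which KRAB proteins act did not pass the test either. Of 19 listed genes, all were tested, 10 were higher and 9 lower in knockdown, with a median log2 difference of 0.05 and 0 called, none at an unadjusted p under 0.05. TRIM28, the scaffold that binds the KRAB domain, had 412, 337 and 485 CPM in knockdown, against 346, 302 and 487 CPM in control (log2 difference 0.12 ± 0.26, SE). SETDB1, a histone methyltransferase, had 162, 124 and 154 CPM in knockdown, against 149, 162 and 154 CPM in control (−0.08 ± 0.20, SE). The groups did not overlap for 4 genes, all lower in knockdown, where the share over all genes was 3.1% lower and 6.24% in either direction. These were the heterochromatin protein gene CBX5, the remodeller gene CHD3, MPHOSPH8 of the HUSH silencing complex, and SUMO2. CBX5 had 243, 234 and 273 CPM in knockdown, against 301, 356 and 292 CPM in control. In each of the 4 the library labelled scrambled control 2 was the highest.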

How the data were processed

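The deposited tables hold 1 estimated count per gene and library; 40.3% to 42.3% of the values in a library were whole (tolerance 1e-06), and the rest were fractions. Per the submitters' processing notes, CASAVA 1.9, TopHat2 2, edgeR and hg19 were used; how reads were counted, with which annotation and whether by strand, is not given in the sources used here, so antisense, overlapping and near-identical genes can share reads. Counts carry no molecular identifiers, so reads are not independent molecules. Counts were rounded for edgeR 4.0.16 (quasi-likelihood, TMM, filterByExpr with a minimum count of 10, group alone in the model, Benjamini-Hochberg over 13668 genes). The fit was tested on simulated data. Their spread was smaller than that of these libraries, so this does not show which differences could be found here. Per-library log2 values used a prior count of 2. Alternatives were other scalings and filters, DESeq2 1.42.0, limma 3.58.1, GC correction (loess span 0.5), a replicate block and libraries left out. Same-numbered libraries deviated together (r = 0.127, 0.394 and 0.566 over all genes), which was read from the values, as the labels do not state a pairing; knockdown 2 also correlated with control 1 (r = 0.164).

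Members and lists were chosen with earlier results of these data known. The genes named are PRMT5, the 6 members with the smallest p in each direction, the 6 with the highest mean CPM, 8 with a described role, TRIM28 and SETDB1; ZNF439, ZNF227, the members of the run and other co-repressors were named after their values were seen. Fingers were counted as C2H2 patterns and the KRAB box by its letters in the first 200 residues, with a pattern widened until known KRAB proteins were found. GENCODE v29 and RefSeq GRCh38.p14 gave GC content for 202 members and gene order for 198; coordinates are of GRCh38.p14, not of the counts' build.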

Additional observations from a re-analysis of the deposited data

How the results depend on the processing

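Neither all genes nor the members gave a call at an adjusted p under 0.05 in any of 17 other fits; with single libraries left out the counts were 0 to 0. The members' median log2 difference was −0.02, ranged from −0.09 to 0.02 with 1 library left out, and was −0.11 without both libraries numbered 2; the number of members lower in knockdown was 98 to 137 with 1 library left out. With the replicate block the median was −0.01, with 0 members called, and with GC correction as well it was −0.01. The median of the run around ZNF91 lay between −0.31 and −0.23 with 1 library left out, with 21 to 26 genes lower; spacings of at most 2 and 10 other genes, added after the data were seen, gave 27 and 29 genes with 24 lower in each. Small differences turned sign: ZNF317 (−0.0082 to 0.088), ZNF587 (−0.074 to 0.142), TRIM28 (−0.017 to 0.347) and SETDB1 (−0.165 to 0.030) with 1 library left out, and ZNF587 at −0.17 and SETDB1 at 0.058 without both libraries numbered 2. The cause was not tested. The no-filter fit gave 477 genes and 4 members at an unadjusted p under 0.05. Precision was limited by 3 libraries a group and a biological coefficient of variation of 0.37; the median SE of a member was 0.32.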
